A study of Bos taurus with 16 samples.

Results

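Leukocyte integrins are paired receptors of an alpha and a beta chain by which blood cells arrest on vessel walls, enter tissue and hold to other cells. The 10 genes described here encode alpha chains (ITGA4, ITGAL, ITGAM and ITGAX), beta chains (ITGB1, ITGB2 and ITGB7) and the cell-surface ligands that some of these pairs bind (ICAM1, ICAM3 and VCAM1). They were taken by name from the array annotation, which holds 20602 distinct gene names, and 13 of its 21475 probes carried a member's symbol as gene name or in brackets in the description, and all 13 were among the 16654 probes tested. ITGAL, ICAM1 and ICAM3 had 2 probes each, which are called probe a and probe b, and the other genes had 1.

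RNA came from CD14+ cells of 4 pregnant cows. From each cow, CD14+ cells were sorted by flow cytometry from dispersed endometrium between the placentomes and from mononuclear cells of cardiac blood, collected at the abattoir (day 164 of pregnancy in animal 1, day 239 in animal 2, day 242 in animal 3 and day 248 in animal 4). No animal was treated, there was no nonpregnant group, and stage of pregnancy cannot be told apart from animal. RNA of the 2 tissues of an animal was amplified and hybridised together, in 2 colours, to 2 arrays on separate slides, which makes 8 arrays and 16 channels, and the dyes were exchanged between the arrays in 3 of the 4 animals. Here a level is the normalised log2 intensity of a probe, averaged over the 2 arrays of an animal, and a log2 ratio is the endometrial level minus the blood level of the same animal. Levels were not compared between probes. The number of animals limits the precision: the 2 arrays of an animal differed in a member's log2 ratio by at most 0.46, whereas the SD between animals had a median of 0.99 over the 13 probes and of 0.68 over all tested probes.

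CD14 and CD68, which mark cells of the monocyte and macrophage lineage, were well above background in 8 of 8 channels of each tissue. The log2 ratio of CD14 was -2.08, 0.11, 0.51 and 0.13 in animals 1 to 4 and that of CD68 was 1.95, -0.13, 1.37 and 2.30. Markers of other cells were also above background. Of 12 epithelial probes, 12 had a positive log2 ratio (median 2.42), as had 9 of 10 trophoblast probes (median 3.51) and 13 of 13 stromal probes (median 1.66), whereas 8 of 8 B cell probes had a negative log2 ratio (median -1.59). In such a mixture, fewer cells of a type and less RNA per cell cannot be told apart.

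The alpha and beta chains combine in fixed pairs. ITGB2 (CD18) joins ITGAL as LFA-1, ITGAM as Mac-1 and ITGAX as a second complement receptor, whose ligands include ICAM1 and, for LFA-1, ICAM3. ITGA4 joins ITGB1 as VLA-4, which binds VCAM1 and fibronectin, or ITGB7 as a receptor for MADCAM1. VCAM1 is best known on activated endothelium, and is also made by stromal cells and some macrophages.

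The bases that each array probe carries determine what it measures, and they are shown for the genes with 2 probes and for the 2 ends of the VLA-4 and VCAM1 pair. Each probe is 60 bases long. The ITGAL and ICAM3 probes are given whole because the agreement or disagreement of each pair is described below, and the first 30 bases are given for the others. All letters are in lower case, 5′ to 3′, as deposited with the scanner values.
ITGAL probe a: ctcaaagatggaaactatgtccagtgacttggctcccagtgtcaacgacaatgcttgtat
ITGAL probe b: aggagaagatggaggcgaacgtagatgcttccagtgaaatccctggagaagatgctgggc
ICAM3 probe a: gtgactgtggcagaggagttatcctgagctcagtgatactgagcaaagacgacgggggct
ICAM3 probe b: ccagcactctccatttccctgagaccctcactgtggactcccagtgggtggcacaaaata
ICAM1 probe a: aattttggaccaaagttttgtttctgtttt
ICAM1 probe b: gccaagctgctttctcccagaaagggatta
VCAM1: ggagacgttttttgatgttgtttgttcatc
ITGA4: gcagctcttaaatggatttaaaaacactaa
The longest run shared by the 2 probes of a gene was 8 bases for ITGAL, 7 for ICAM1 and 7 for ICAM3, so the probes of a pair read separate stretches. GC content was 45% and 53.3% for ITGAL probes a and b, and 55% for both ICAM3 probes. The files place none of these probes on the genome, and no coordinates are given.

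No member passed the test between endometrium and blood (limma, adjusted p at most 0.05 and fold over 2), where 0.0661% of tested probes did. At an unadjusted p of at most 0.05 with a fold over 2, 4 of the 13 probes passed, against 10.4% of tested probes: VCAM1 and ICAM3 probe a with the higher level in endometrium (2 of 13, against 5.27%), and both ITGAL probes with the higher level in blood (2 of 13, against 5.1%). The ITGAL probes measure the same gene and are not separate observations. The median log2 ratio of the 13 probes was -0.04, beside -0.02 over all tested probes, and the median size of the log2 ratio was 0.69, beside 0.37.

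**Figure D1:**
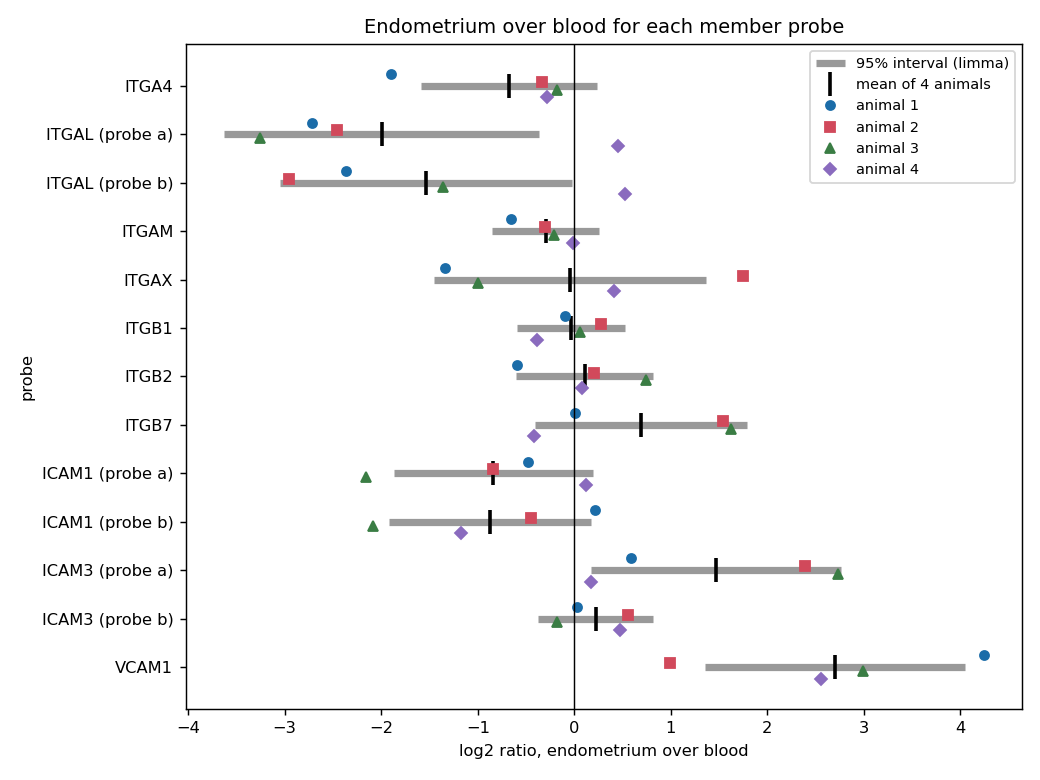
The log2 ratio of endometrium over blood (x axis) for each of the 13 member probes (y axis), with a point for each animal, a black tick at the mean of 4 animals and a grey bar for its 95% interval from limma. The VCAM1 points lie between 1.00 and 4.25, and the ITGAL points of animals 1 to 3 lie on the opposite side of 0 from those of animal 4.

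VCAM1 had the largest log2 ratio of the members, with more signal in endometrium than in blood in 4 of 4 animals. Its blood levels were 8.27, 6.67, 8.12 and 6.34 in animals 1 to 4 and its endometrial levels were 12.52, 7.67, 11.11 and 8.89. The ratio was thus widest in animal 1 and narrowest in animal 2, and the ranges of the tissues overlapped because the endometrial level of animal 2 lay below the blood levels of animals 1 and 3. The ranges overlapped for all 13 member probes, whereas 2.41% of tested probes had all endometrial levels above all blood levels and 3.03% had them all below. A higher endometrial level in 4 of 4 animals was seen for 2 of the 13 member probes and for 10.2% of tested probes. The mean log2 ratio was 2.70 ± 0.54 (SE, n = 4 animals, 6.49-fold), with a 95% interval of 1.35 to 4.05, and it ranked 129 of 16654 from the highest. The adjusted p was 0.259 by limma.

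The VCAM1 call depended on how the intensities were made and on the model. With the authors' log2 values the log2 ratios were 4.72, 2.02, 3.50 and 4.53 in animals 1 to 4 (mean 3.69, limma adjusted p = 0.0390), and VCAM1 was then the only member among the 1.35% of probes that passed. With the scanner's processed signal the mean was 3.72 (adjusted p = 0.0493), and it was again the only member among the 1.03% that passed. A fit to all 8 arrays with slide and dye terms gave 2.70 (limma adjusted p = 0.0441), with VCAM1 the only member among the 1.67% that passed. That fit took the 8 arrays of 4 animals as its observations, with a correlation of 0.987 within an animal. Its p-value thus does not rest on animal means alone. The blood signal of this probe was low, between 34.5 and 371.5 intensity units before background correction. The endometrial signal ran from 100 to 15664, and the probe exceeded background clearly in 8 of 8 channels of each tissue.

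**Figure D2:**
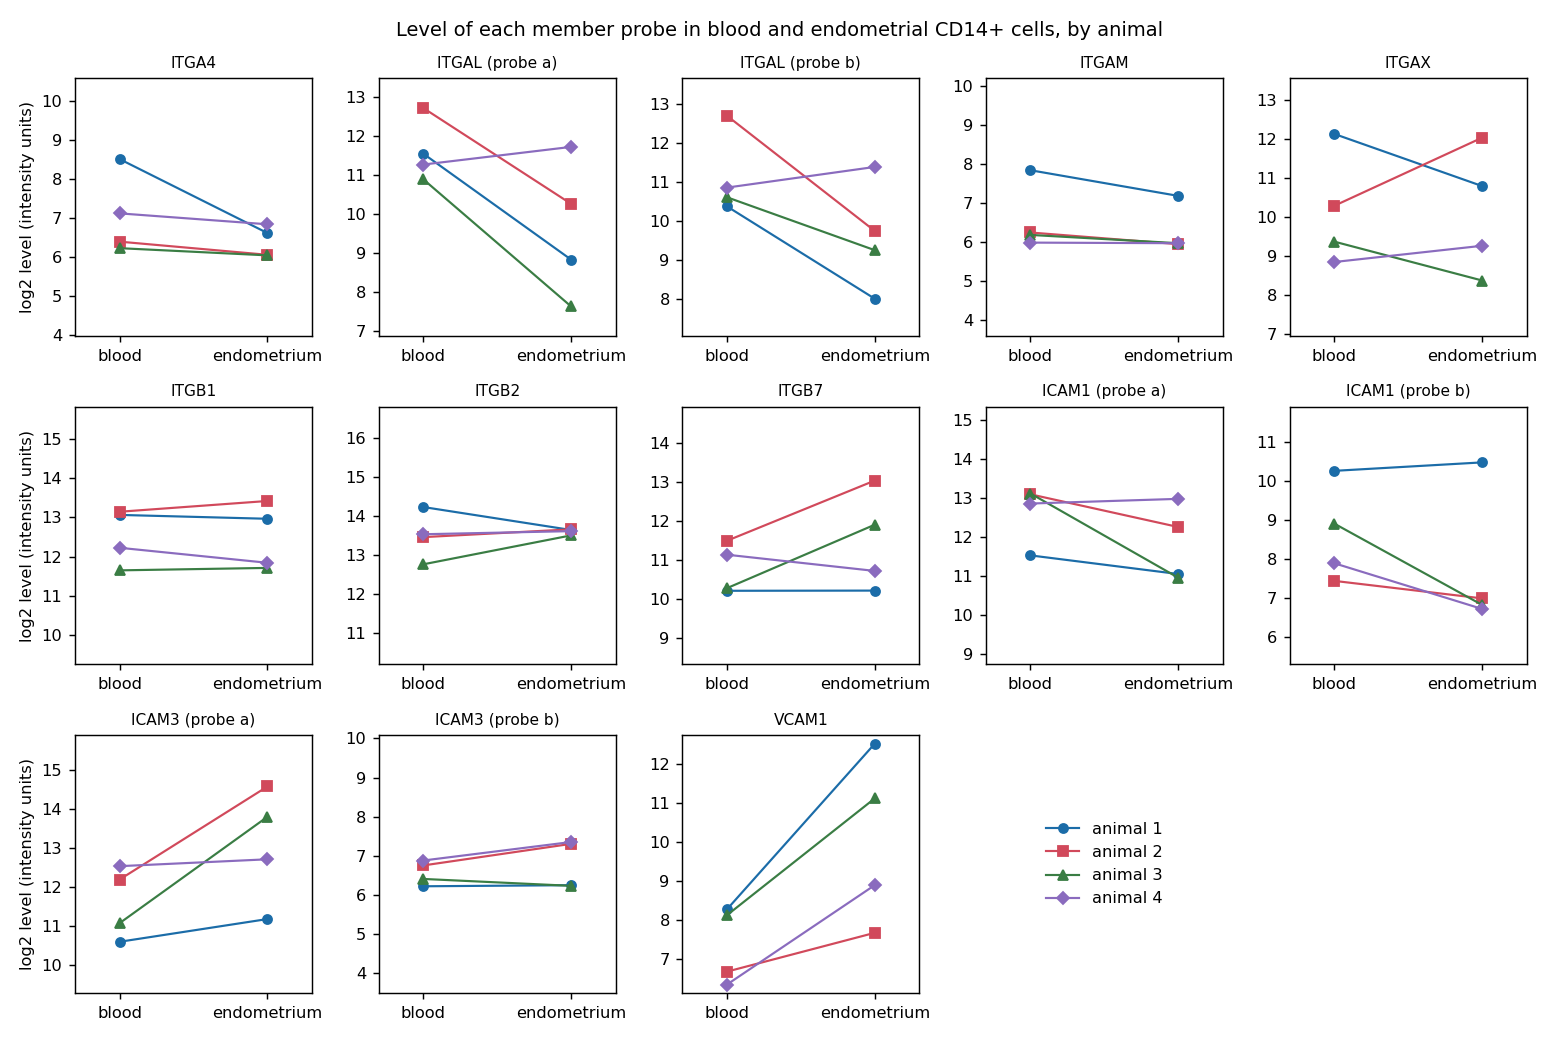
Levels (y axis, log2 intensity units) of each member probe in blood and endometrial CD14+ cells (x axis), with a line for each animal. Every panel spans the same number of log2 units, heights are not comparable between panels, and the VCAM1 lines of all 4 animals slope upward from blood to endometrium.

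Stromal, endothelial and macrophage markers are given beside VCAM1. The medians of the monocyte and macrophage list were -0.02, 0.11, 2.48 and 2.30 in animals 1 to 4. The stroma list and VCAM1 were both highest in animal 1 and lowest in animal 2. The median log2 ratio of the stroma list was 4.72, -0.01, 1.65 and 0.86 in animals 1 to 4, and COL1A1 and COL1A2, fibrillar collagen chains, had ratios of 5.66 and 5.82 in animal 1 and of -0.06 and 0.25 in animal 2. The summed intensity of the 13 tested stromal probes ran from 1130 to 104710 in endometrium and from 1085 to 2823 in blood. The sums of all marker lists include an offset of 50 intensity units added to every probe. Low sums are therefore not a measure of signal from those cells. The medians of the endothelium list were 0.66, -0.21, 1.01 and -0.01, with 13 of 16 probes above 0, and PECAM1 and CDH5, junction proteins of endothelial cells, had mean log2 ratios of 0.28 and 0.40. Of the 16 endothelial probes, 2 were past the unadjusted threshold with the higher level in endometrium, where 5.27% of tested probes passed (limma). They were VWF, the von Willebrand factor (1.72, 1.204, 3.87 and 0.09 in animals 1 to 4, mean 1.72), and MMRN2, a matrix protein of endothelium (mean 1.77). EMCN, a sialomucin, had a mean of 1.45. CLDN5, TIE1 and SOX18 lay below 0, with means of -0.34, -0.13 and -0.05. All of these were named after their values were seen. Summed endothelial intensity ran from 2571 to 11841 in endometrium and from 2253 to 3378 in blood. CDH5 exceeded background clearly in 0 blood channels and in 6 of the 8 endometrial channels. In animal 2, where the stromal median was at 0, the VCAM1 log2 ratio was 1.00. The part of these cells in the VCAM1 ratio was not tested.

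**Figure D3:**
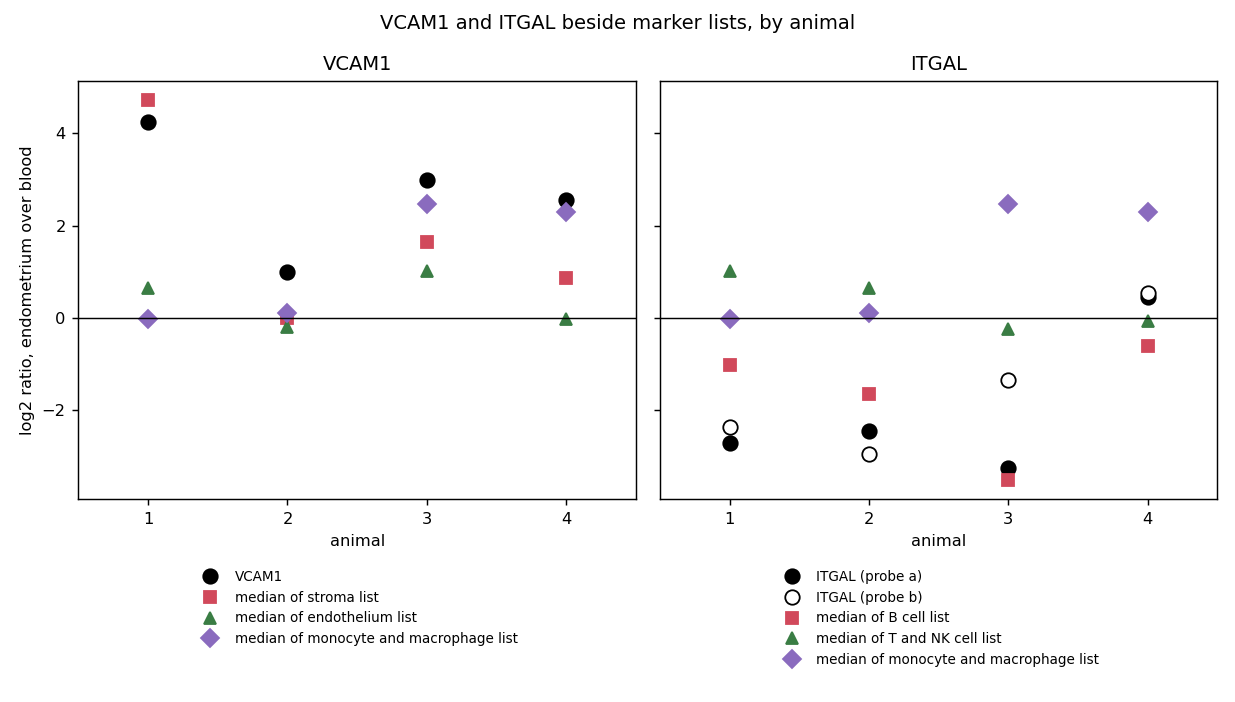
Log2 ratio of endometrium over blood (y axis) in each animal (x axis) for VCAM1 beside the medians of 3 marker lists, and for the ITGAL probes beside the medians of 3 marker lists. VCAM1 and the stroma list both peak in animal 1, and the endothelium list and the monocyte and macrophage list in animal 3. The B cell list is below 0 in all 4 animals.

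Among tested probes with a gene name, the 3 most like VCAM1 over the 8 mean levels (4 animals in 2 tissues) were those of CTTN, C1QTNF5 and APCDD1. Their Pearson r was 0.991 for CTTN (cortactin, an actin-binding protein), 0.990 for C1QTNF5 and 0.990 for APCDD1. Their log2 ratios were 1.58, 2.43 and 3.104. The 8 levels share 4 animals and the arrays, so r is given as a description.

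ITGA4, the alpha chain of the VCAM1 receptor, had the opposite sign to VCAM1 in 4 of 4 animals. Its log2 ratios were -1.90, -0.34, -0.18 and -0.28 in animals 1 to 4. A lower endometrial level in 4 of 4 animals was seen for 2 member probes, ITGA4 and ITGAM, and for 14.7% of tested probes. For ITGAM the log2 ratio of animal 4 was only -0.015, and its 2 arrays gave -0.042 and 0.011. The blood levels of ITGA4 were 8.52, 6.40, 6.24 and 7.13 and its endometrial levels were 6.62, 6.07, 6.05 and 6.85, so the ranges overlapped and animal 1 stood apart. The probe was dim: its spots exceeded background clearly in 7 of 8 blood channels and 4 of 8 endometrial channels. The mean log2 ratio was -0.67 ± 0.36 (SE, n = 4), limma adjusted p = 0.421.

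The size of the ITGA4 ratio differed with the treatment of low intensities. The offset of 50 intensity units added after background correction pulls the ratios of dim probes toward 0, and with an offset of 10 the mean was -1.07. The authors' log2 values gave -3.36, -2.40, -2.37 and -0.72 (mean -2.21, limma adjusted p = 0.163), and the scanner's processed signal gave a mean of -2.14 (adjusted p = 0.197). The sign was negative in each of these, and their size rests on endometrial signal that was not well above background in 4 of 8 channels. Without animal 1 the main value was -0.27. The 3 probes most like ITGA4 over the 8 levels were CRYGS (r = 0.965), MAGEE2 (r = 0.954) and a probe that the reference names SYS1 and the array describes as DBNDD2 (r = 0.953).

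**Figure D4:**
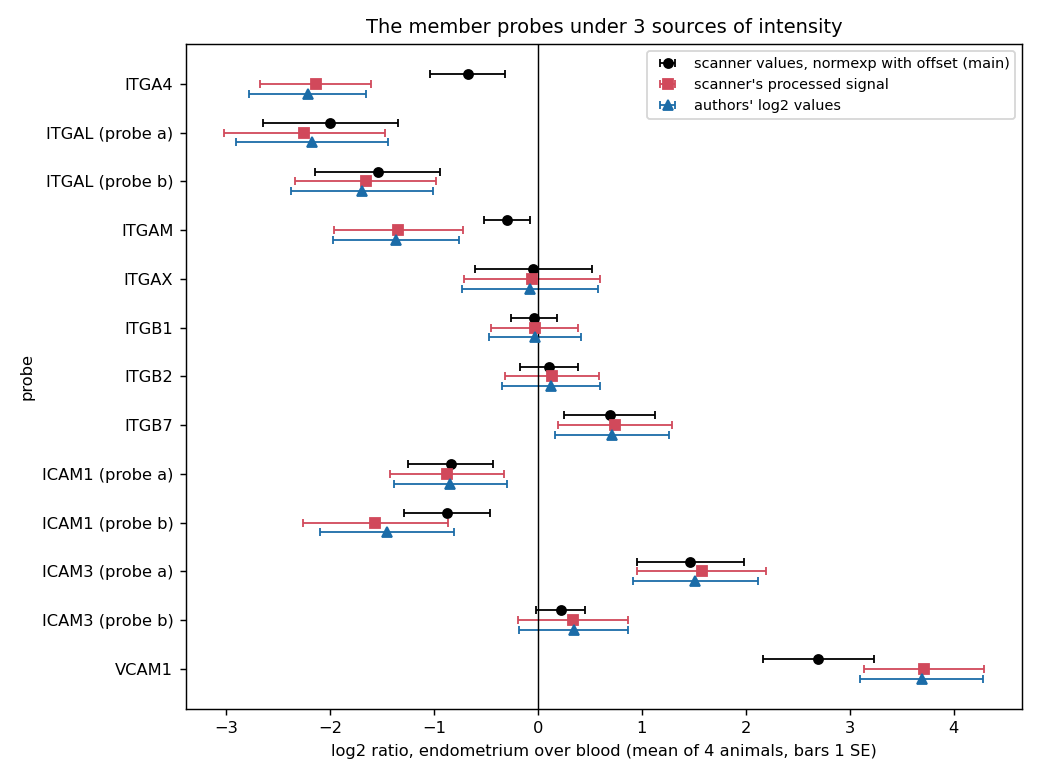
Mean log2 ratio of endometrium over blood over 4 animals (x axis, bars 1 SE) for each member probe (y axis) from 3 sources of intensity. The probes of ITGA4, ITGAM, ICAM1 (probe b) and VCAM1, each dim in at least 1 tissue, lie farther from 0 with the processed signal and with the authors' values, and the others move less.

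The partners of ITGA4 did not share its pattern. ITGB1, which is widely expressed and joins many alpha chains, had log2 ratios of -0.10, 0.28, 0.06 and -0.39 in animals 1 to 4. Their mean was -0.04 ± 0.22 (SE), with a 95% interval of -0.59 to 0.52, and both tissues had levels above 11.6 in all animals. The mean of ITGB1 turned to 0.04 with loess alone. ITGB7, the chain of gut and mucosal homing receptors, had log2 ratios of 0.0043, 1.54, 1.63 and -0.42 (mean 0.69 ± 0.44, limma adjusted p = 0.488, 95% interval -0.41 to 1.79). Animals 2 and 3 thus had more ITGB7 signal in endometrium, animal 4 had less, and the 2 arrays of animal 1 gave -0.22 and 0.23. ITGAE, the other alpha chain that pairs with ITGB7 and a marker of lymphocytes within epithelium, had log2 ratios of 0.95, 2.63, 2.41 and 0.30 (mean 1.57 ± 0.46, unadjusted p = 0.0172 and adjusted p = 0.267 by limma). It was named after its values were seen, and its ratio was wider in animals 2 and 3, as for ITGB7.

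ITGAL had lower signal in endometrium than in blood in animals 1 to 3 on both probes, and slightly higher signal in animal 4. For probe a, the blood levels were 11.55, 12.72, 10.90 and 11.27 and the endometrial levels were 8.84, 10.27, 7.64 and 11.73 in animals 1 to 4. For probe b, they were 10.37, 12.69, 10.60 and 10.85 in blood and 7.997, 9.73, 9.24 and 11.38 in endometrium. The ranges of the tissues overlapped on each probe, where the endometrial level of animal 4 lay among the blood levels. The log2 ratios were -2.72, -2.46, -3.26 and 0.45 for probe a and -2.37, -2.96, -1.36 and 0.53 for probe b. The probes agreed in sign in each animal, and differed most in animal 3, by 1.90.

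The mean log2 ratio of ITGAL was -1.996 ± 0.65 for probe a (SE, n = 4, 3.99-fold, limma adjusted p = 0.278) and -1.54 ± 0.60 for probe b (2.90-fold, limma adjusted p = 0.322). Without animal 1, 2 or 3, probe a gave -1.76, -1.84 and -1.57, and probe b gave -1.26, -1.07 and -1.60. In those fits the limma adjusted p ran from 0.444 to 0.571, and neither probe was past the unadjusted threshold. Without animal 4, which had the opposite sign, the means were -2.81 (limma adjusted p = 0.174) and -2.23 (adjusted p = 0.191). Within slides 1 and 2 probe a gave -2.07 and -1.92.

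ITGB2, the beta chain that LFA-1 needs, did not follow ITGAL. Its blood levels were 14.24, 13.47, 12.77 and 13.54 and its endometrial levels were 13.65, 13.67, 13.51 and 13.62 in animals 1 to 4. The endometrial levels lay within a narrow band (SD 0.07), whereas the blood levels had an SD of 0.60. The mean log2 ratio was 0.11 ± 0.28 (SE, 95% interval -0.60 to 0.82), and it was -0.10 without animal 3. The log2 ratio of ITGAL probe a was below that of ITGB2 by 2.13, 2.66 and 4.00 in animals 1 to 3 and above it by 0.37 in animal 4.

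The other alpha chains of ITGB2 were divided or dim. ITGAX (CD11c), a chain of macrophages and dendritic cells, had log2 ratios of -1.34, 1.75, -0.997 and 0.42, so 2 animals lay on each side of 0. The mean was -0.04 ± 0.56 (SE, 95% interval -1.45 to 1.37). ITGAM (CD11b), a chain of monocytes and granulocytes, exceeded background clearly in 4 blood channels and 2 endometrial channels of 8 each. Its blood levels were 7.85, 6.25, 6.19 and 5.995 and its endometrial levels were 7.19, 5.96, 5.98 and 5.98, with animal 1 above the others in both tissues. The mean log2 ratio of ITGAM was -0.30 ± 0.22 (SE, limma adjusted p = 0.550), and it was -1.36 with the authors' log2 values, in which animal 4 turned to 0.29.

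Markers of other leukocytes are given beside ITGAL because lymphocytes and granulocytes also carry LFA-1. The B cell list had medians of -1.03, -1.65, -3.52 and -0.61 in animals 1 to 4, and MS4A1, a surface protein of B cells, had a mean log2 ratio of -1.83. Summed intensity of the 8 B cell probes ran from 3370 to 16664 in endometrium and from 6779 to 39053 in blood. The T and NK cell list had medians of 1.03, 0.65, -0.23 and -0.06, and CD3D and CD3E, chains of the T cell receptor complex, had means of -0.41 and 1.04. Its summed intensity was 5923, 111340, 44561 and 45884 in endometrium and 2054, 50532, 28648 and 51536 in blood in animals 1 to 4. The granulocyte list had medians of -0.79, -0.08, 0.48 and -0.23, with 3 of 8 probes above 0 (LTF, a neutrophil granule protein, had a mean of 1.17, MMP9 0.90 and CHI3L1 0.35, named after their values were seen). The probe named IL8RB or CXCR1, which binds interleukin 8, had ratios of -2.17, -0.69, -1.04 and -0.42, and CSF3R, the receptor for granulocyte colony-stimulating factor, had -4.81, -0.19, -0.16 and -0.19. The 8 tested granulocyte probes summed to 3101, 743, 2594.5 and 965 in endometrium and to 16087, 916, 968 and 846 in blood in animals 1 to 4. The monocyte and macrophage list had medians of -0.02, 0.11, 2.48 and 2.30, with 7 of 9 probes above 0. It summed to 120280, 10038, 41015 and 33932 in endometrium and to 130560, 5219, 10278 and 4647 in blood in animals 1 to 4. LYZ was above background in 0 channels. In animal 4, where ITGAL had the higher signal in endometrium, the B cell median was below 0. The part of these cells in the ITGAL ratio was not tested.

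The ICAM3 probes did not give the same picture. ICAM3 is a ligand of LFA-1 carried by leukocytes themselves. Probe a had blood levels of 10.61, 12.20, 11.08 and 12.54 and endometrial levels of 11.19, 14.59, 13.81 and 12.72 in animals 1 to 4. Endometrium was above blood in 4 of 4 animals, widely in animals 2 and 3 and narrowly in animals 1 and 4, and the ranges overlapped. Its log2 ratios were 0.58, 2.39, 2.73 and 0.18 (mean 1.47 ± 0.51, SE, 2.77-fold, unadjusted p = 0.0324 and adjusted p = 0.291 by limma). Probe b had blood levels of 6.21, 6.75, 6.40 and 6.87 and endometrial levels of 6.24, 7.30, 6.22 and 7.35. It exceeded background clearly in every blood channel and in 6 of 8 endometrial channels, and its log2 ratio was 0.22 ± 0.24 (SE), with animal 3 at -0.18. The probes thus differed by 2.91 on the log2 scale in animal 3 and by 1.83 in animal 2. The files name both ICAM3, with the same accession (NM_174349), and which of them measures ICAM3 transcripts was not tested.

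The ICAM1 probes carried conflicting names. ICAM1 (CD54) is induced on endothelium, stroma and leukocytes by inflammatory cytokines and binds LFA-1 and Mac-1. Probe a has the gene name ICAM1 and the accession NM_174348, but its description is that of PTBP1, a splicing factor. Its blood levels were 11.53, 13.09, 13.11 and 12.86 and its endometrial levels were 11.05, 12.25, 10.95 and 12.98 in animals 1 to 4. Probe b, named and described as ICAM1, had blood levels of 10.26, 7.44, 8.91 and 7.89 and endometrial levels of 10.48, 6.99, 6.82 and 6.72. Animal 1 was the lowest in blood on probe a and the highest in both tissues on probe b.

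Over the 8 mean levels, probe a had a Pearson r of -0.38 with probe b and of 0.96 with the array's other PTBP1 probe (accession NM_174442). The log2 ratios of that PTBP1 probe were -0.89, -0.62, -2.19 and 0.08, beside -0.48, -0.84, -2.16 and 0.12 for ICAM1 probe a. The correlations are descriptions over levels that share animals and arrays. Probe a is therefore reported under both names and is not read as ICAM1.

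For ICAM1 probe b the log2 ratios were 0.22, -0.45, -2.09 and -1.17 (mean -0.87 ± 0.42, SE, limma adjusted p = 0.379). Animals 2 to 4 had less signal in endometrium and animal 1 slightly more. With the authors' log2 values they were 0.33, -0.88, -3.01 and -2.24 (mean -1.45, limma adjusted p = 0.327). Probe a had a mean of -0.84 ± 0.41 (limma adjusted p = 0.386). In the reference annotation (ARS-UCD2.0) 5 protein-coding genes lie between ICAM1 and ICAM3, among them ICAM4 and ICAM5.

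The rest of the integrin family was read from a list of 19 other subunits, of which 15 were tested by the probe with the highest mean level of each gene. None passed the test, and at an unadjusted p of at most 0.05 with a fold over 2 there were 4 of 15 with the higher level in endometrium, against 5.27% of tested probes, and 0 with the higher level in blood, against 5.1% (limma). The median log2 ratio was 0.44, beside -0.02 over all tested probes. ITGB5, a beta chain of the vitronectin receptor family, had the highest log2 ratio of the list at 2.09 ± 0.86 (SE), with 4.24, 0.59, 3.80 and -0.27 in animals 1 to 4. ITGAV, its alpha partner, had the lowest at -0.33 ± 0.56, with 1.62 in animal 1 and -1.43, -0.20 and -1.31 in the others. ITGA3, ITGA6 and ITGB6, chains of epithelial adhesion, made up the 4 together with ITGAE and had means of 1.65, 1.88 and 1.52, with ratios of only -0.07, 0.11 and 0.07 in animal 4. They were named after their values were seen. The median of the epithelium list was 2.39, 1.89, 4.00 and 1.42 in animals 1 to 4, with KRT8 and KRT18, keratins of simple epithelium, at means of 2.65 and 3.21, and summed epithelial intensity ran from 13108 to 116320 in endometrium and from 1418 to 3889 in blood. The trophoblast list had medians between 3.20 and 3.71 in the animals and sums of 14737 to 49338 in endometrium and 1499 to 3301 in blood. Among its first genes, PAG4, a pregnancy-associated glycoprotein, had a mean of 3.17, and the probe matched to the symbol PAG1 had -1.44. Which gene the PAG1 probe measures was not tested. PAG4 was among the 5 trophoblast probes that passed the test, with PAG7, PRP1, PRP6 and the probe shared by CSH1 and CSH2, which were named after their values were seen. The part of these cells in the integrin ratios was not tested.

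Other ligands of the same receptors were tested for 16 of 21 genes, with 0 passing the test and 2 past the unadjusted threshold, both with the higher level in endometrium, where 5.27% of tested probes passed (limma). Their median was 0.29. SPP1 (osteopontin), which binds ITGA4 and ITGAV pairs, had the highest log2 ratio, 3.69 ± 0.91 (SE, limma adjusted p = 0.262), with 6.22, 0.45, 4.32 and 3.78 in animals 1 to 4. Animal 2 was thus the lowest for SPP1, as it was for VCAM1. The other gene past the unadjusted threshold, named after its values were seen, was FGB, a chain of fibrinogen, with a mean of 1.90. THBS1 (thrombospondin) had the lowest, -1.26 ± 1.28, through -5.98 in animal 1, and 2.13 in animal 3 lay on the other side of 0. MADCAM1, the mucosal ligand of the ITGA4 and ITGB7 pair, had -0.18, -0.17, 0.29 and -0.06 and was named after its values were seen.

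Selectins, which slow leukocytes before integrins bind, and their ligands were tested for 10 of 11 genes, with 0 passing the test and 2 past the unadjusted threshold with the higher level in endometrium, where 5.27% of tested probes passed (limma). The median was 0.02. CD34, a selectin ligand of vessels and progenitors, had the highest log2 ratio (1.33 ± 0.53) and was past that threshold with ST3GAL4, a sialyltransferase (1.01 ± 0.30, named after its values were seen). Genes that activate integrins from inside the cell were tested for 23 of 28, with 0 passing the test, 0 past the unadjusted threshold with the higher level in endometrium and 2 with the higher level in blood, where 5.1% of tested probes passed (limma). Their median was -0.08. RASGRP2, the exchange factor that switches on RAP1 in blood cells, had the lowest log2 ratio, -2.41 ± 0.70 (SE, limma adjusted p = 0.266). Its values were -1.79, -3.15, -4.45 and -0.24 in animals 1 to 4, so animal 4 was closest to 0. The other gene past the threshold, named after its values were seen, was LYN, a tyrosine kinase of myeloid and B cells, with -1.03, -3.38, -3.29 and 0.08 (mean -1.91). SKAP2, an adaptor of integrin signalling, had the highest, 1.54 ± 0.71, with -0.96 in animal 1 and 3.29, 2.39 and 1.44 in the others.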

How the data were processed

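Expression was measured on 8 two-colour Agilent bovine arrays from CD14+ cells of blood and endometrium of 4 animals, with 2 arrays per animal. The authors deposited scanner intensity files (Feature Extraction; version 9.5 per the submitters' processing notes and 10.5.1.1 per the file headers) and a table of log2 values that were, by their methods, lowess- and quantile-normalised. The 16 files are 8 files deposited as identical pairs. Column by column, the authors' log2 table ranked the probes as the scanner's processed signal of the labelled dye did, on another scale. When the spots of a file were given the column's values by rank, the mean over a probe's spots equalled the table's within 0.001 for 100% of probes. By single spot 40.9% to 41.0% were equal, since the order of spots within a probe was not kept. In all 16 columns the matching file was attached to the same animal's other hybridisation (own file, at most 0.689% of probes), so every file was assigned by this match. Without it the tissues would be exchanged in animals 1, 2 and 4. The direction therefore rests on the labels of the value table. Columns not mapped to a sample numbered 0.

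Median intensities were background-corrected (normexp, offset 50), then loess-normalised in each array and quantile-normalised across channels, with limma 3.58.1 (R 4.3.3). Control spots and 3 to 20 outlier spots per array were left out, and the 2 spots of a probe were averaged. Endometrium minus blood was averaged over the 2 arrays of an animal and tested against 0 with limma over 4 animals, with Benjamini-Hochberg adjustment over 16654 probes well above background in at least 4 of 8 channels of a tissue. In the channels, 65.2% to 82.9% of spots were well above background and 0 were saturated. The deviations of the 2 tissues of an animal from their tissue means correlated in every pair (r of 0.618, 0.364, 0.209 and 0.465). The tissues of an animal share both the cow and the arrays, and these cannot be told apart here. The median log2 ratio of all tested probes was -0.02, -0.13 with the processed signal and -0.14 with the authors' values. The scripts were tested on simulated data.

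The rule for naming genes took all members, of 4 related lists any gene that passed and the genes with the highest and lowest ratio, CD14, CD68 and the first 2 genes of each marker list, and the 3 genes most like VCAM1 and ITGA4. Of the genes this rule takes, 2 are not reported here. Members, lists and rules were chosen with earlier results of these data known. Names came from the files and from RefSeq (ARS-UCD2.0), which matched 3519 probes by accession and 9987 by gene identifier, and 12 of the 13 member probes. It named 0 further probes as members. Alternatives were other signals, filters, an offset of 10 (added after seeing the data), no pairing, a slide block with a dye term, single slides, left-out animals and the methods' analysis of variance. The last was run as a paired t test over 4 animals on the intensities as normalised here, not on the authors' values.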

Additional observations from a re-analysis of the deposited data

Results flagged for a closer look

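In 5 of 39 groups of 4 animals (13 probes, each with its log2 ratio, blood level and endometrial level), the extreme animal was farther from the nearest other than Dixon's 95% critical value for 4 values allows. Chance flags about 1 group in 20. The groups share the same 4 animals, and each ratio is made from the 2 levels of its probe. They are therefore not independent, and whether 5 of 39 exceeds chance was not tested. In all 5 flagged groups, the animal was animal 1. They were the ITGA4 log2 ratio of -1.90, the ITGAM levels of 7.85 in blood and 7.19 in endometrium, the ICAM1 probe b level of 10.48 in endometrium, and the level of 11.53 in blood of ICAM1 probe a, which is the lowest of its group and whose description is PTBP1. With the authors' log2 values the ITGA4 log2 ratios were -3.36, -2.40, -2.37 and -0.72 in animals 1 to 4. Animal 4 then lay farthest from the others. ITGAM exceeded background clearly in only 4 of 8 blood channels and 2 of 8 endometrial channels. Its endometrial levels in animals 2 to 4 were 5.96, 5.98 and 5.98. Animal 1 was also the only animal sampled at 164 days of pregnancy, and this cannot be told apart from the animal.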

How the results depend on the processing

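Over 15 alternatives, the 13 member values were recomputed 192 times: 182 kept their sign and their side of the threshold, 7 changed sign and 3 passed the threshold. The 3 were VCAM1 with the scanner's processed signal, the authors' log2 values, and a slide block with a dye term (2.70, adjusted p = 0.0441). Each of them gave 1 member passing in place of 0. The slide block took arrays, not animal means, as its observations. The sign changes were near 0. With loess alone, ITGAX was 0.063 and ITGB1 0.036, and within slide 1 ITGB1 was 0.0082. With each animal left out in turn, ITGAX ran from -0.64 to 0.39 (0.39 without animal 1, 0.28 without animal 3), ITGB1 from -0.14 to 0.080 (without animal 4) and ITGB2 from -0.10 (without animal 3) to 0.34. The adjusted p of VCAM1 ranged from 0.0390 to 0.556. With an offset of 10, its log2 ratio was 3.17 (adjusted p = 0.0709).

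The count of all probes passing moved most: from 11 to 171 with the processed signal, 224 with the authors' values, 278 with the slide block, 86 with an offset of 10, 55 with probes above background in all 16 channels, 20 within slide 1, 5 within slide 2, 5 with loess alone, 5 without a filter, 4 without the pairing by animal (no replicate block) and 0 with the methods' analysis of variance. The analysis of variance was run on the intensities as normalised here, so its count is not that of the study. Leaving out an animal gave 0 in each case. Without the pairing, VCAM1 kept 2.70 with adjusted p = 0.445. Member probes past the unadjusted threshold numbered 2 without a filter, 2 without the pairing, 1 with the methods' analysis of variance, and 1 to 5 when an animal was left out (1 without animal 2 and 1 without animal 3, both VCAM1). The filter over 16 channels left out ITGA4, ITGAM and ICAM3 probe b. The causes were not tested, and low signal over background limits ITGA4, ITGAM and VCAM1 in blood.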
